A study of Homo sapiens with 4 samples.

Results

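The genes described here make, store and break down triacylglycerol and supply the fatty acids for it. They are 36 genes chosen by name, and all 36 were found among the 59384 gene names of the count table. Cells build triacylglycerol by adding fatty acyl groups to glycerol 3-phosphate, in steps carried out by glycerol 3-phosphate acyltransferases, lysophosphatidic acid acyltransferases, lipins and diacylglycerol acyltransferases. The product is packed into lipid droplets, coated by perilipins, and is broken down again by lipases when fatty acids are needed. Fatty acids enter the pathway by uptake or by synthesis from acetyl-CoA, and are first joined to coenzyme A by acyl-CoA synthetases.

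RNA was sequenced from Daoy cells, an established human medulloblastoma line, which the labels call tumor cells. The control group, with the genotype label WT, was infected with the empty pLKO lentivirus. The other group, with the genotype label FABP4 knockdown, was infected with an shFABP4 lentivirus, which expresses a short hairpin RNA against FABP4, a fatty acid binding protein best known from adipocytes and macrophages. Each group held 2 libraries, numbered 1 and 2. The hairpin sequence, the number of hairpins, the time after infection and any drug selection are not given in the sources used here. The sources used here do not tell whether a group's libraries are separate cultures, so the spread behind each p-value may be technical.

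The libraries were not alike. Counted fragments were 8988961 (pLKO 1), 13839885 (pLKO 2), 2539862 (shFABP4 1) and 20431660 (shFABP4 2). The shallowest library, shFABP4 1, had a fragment in 51762 gene names, against 22350 to 25560 in the other 3. Its background rate, taken from coding genes silent in the rest of the libraries, ran from 3.44 fragments per kb of exon below 40% GC to 18.4 at 60% GC and above, and at these rates background made up 54.9% of the library. Across genes, which are not independent replicates, the correlation of log2 CPM was 0.987 for the pLKO pair, 0.895 to 0.899 for shFABP4 2 with either pLKO library and 0.544 to 0.559 for shFABP4 1 with any other library. The targeted gene FABP4 had 1, 6, 14 and 0 fragments in the order above, or 0.111, 0.434, 5.51 and 0 CPM (counts scaled to a common library total), with exact 95% Poisson intervals of 0.00282 to 0.620, 0.159 to 0.944 and 3.01 to 9.25 in the first 3. A count of 0 in shFABP4 2 allows up to 0.147 CPM by the limit of 3 counts, and up to 0.1805 by the exact 95% interval. The 14 fragments in shFABP4 1 were 2.97 times the 4.71 expected from background. Silent genes with at least 20 expected fragments reached 2.76 times at their 95th percentile, and FABP4 had fewer expected. FABP4 thus did not bear out the label of shFABP4 1, but its count there is hard to tell from background. It was too low in the pLKO libraries to check the label of either shFABP4 library. Of 5 mesenchymal and neural progenitor markers, VIM and CD44 were high in every library (13811, 21475, 2830 and 131016 fragments for VIM). They were not level, with VIM at 1536, 1552, 1114 and 6412 CPM and CD44 at 331, 330.4, 163.4 and 533.1. The rest were low, with NES at 35, 69, 171 and 180 fragments, SOX9 at 42, 66, 68 and 249 and SOX2 at 0, 2, 5 and 0. Background in shFABP4 1 was expected to give NES 91.1 fragments, SOX9 41.65 and SOX2 26.6. The 8 markers of Hedgehog medulloblastoma and granule neuron precursors summed to 12.8, 13.8, 270 and 98.1 CPM, with 506.6 of their 687 fragments in shFABP4 1 expected from background. Of these, SFRP1 had 6, 16, 64 and 942 fragments and GLI1 49, 72, 123 and 479, whereas ATOH1 had 0 in all libraries but shFABP4 1. Adipocyte markers summed over 9 genes to 54.0, 56.6, 237 and 69.1 CPM. Outside shFABP4 1 most of this came from CFD (380, 577, 85 and 1172 fragments) and PPARG (97, 184, 51 and 215), with ADIPOQ, LPL and RETN at 0 or 1 fragment there. The 5 hepatocyte markers summed to 9.46, 9.25, 141 and 49.2 CPM, with SERPINA1 at 7.79, 7.88, 53.55 and 48.85. The 5 blood and macrophage markers summed to 20.4, 17.8, 66.9 and 15.4 CPM, mostly from HBB. Background was expected to give 174 of 359 and 116 of 170 fragments of these lists in shFABP4 1. The part of these markers in the results below was not tested. The libraries are bulk RNA, so fewer cells of a type and less RNA per cell cannot be told apart.

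Promoters are shown for AGPAT2, SLC27A4 and PNPLA2, the 3 genes of the set highest per kb of exon without the hairpin. AGPAT2 and SLC27A4 were both lower in shFABP4 2, while PNPLA2 was nearly level there. Each line gives the 250 bases before the RefSeq transcription start, 5′ to 3′ on the gene's own strand, in the RefSeq build GRCh38.p14. Capitals mark matches, on either strand, to the searched motifs, which were the GC box bound by SP factors (GGGCGG), the CCAAT box (those 5 letters), the E-box bound by MYC and USF factors (CACGTG), a sterol regulatory element bound by SREBP factors (TCACCCCAC) and the PPAR response element, a direct repeat of 2 nuclear receptor sites with 1 base between them. Except in the AGPAT2 window, no matches shown overlap.
AGPAT2: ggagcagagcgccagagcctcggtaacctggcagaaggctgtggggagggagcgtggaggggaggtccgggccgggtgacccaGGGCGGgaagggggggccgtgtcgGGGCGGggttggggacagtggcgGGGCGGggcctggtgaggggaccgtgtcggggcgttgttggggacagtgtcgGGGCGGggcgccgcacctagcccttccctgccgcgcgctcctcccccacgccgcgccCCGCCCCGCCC
SLC27A4: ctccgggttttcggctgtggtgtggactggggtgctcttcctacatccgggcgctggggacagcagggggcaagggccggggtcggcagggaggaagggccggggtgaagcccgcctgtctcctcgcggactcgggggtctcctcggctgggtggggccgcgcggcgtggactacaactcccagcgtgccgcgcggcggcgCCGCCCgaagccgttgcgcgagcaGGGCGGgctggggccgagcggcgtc
PNPLA2: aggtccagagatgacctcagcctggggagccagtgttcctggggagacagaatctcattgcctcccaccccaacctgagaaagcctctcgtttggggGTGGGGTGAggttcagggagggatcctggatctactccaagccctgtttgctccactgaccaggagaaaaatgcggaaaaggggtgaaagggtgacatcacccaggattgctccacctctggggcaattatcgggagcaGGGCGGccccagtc
The AGPAT2 window is chr9:136687458-136687707 (minus strand), with 6 GC boxes, of which the last 2 overlap, and 77.6% GC. The SLC27A4 window is chr9:128340277-128340526 (plus strand), with 2 GC boxes and 75.2% GC. The PNPLA2 window is chr11:818664-818913 (plus strand), with 1 GC box, 1 match to the sterol regulatory element and 58.4% GC. RefSeq promoters were matched for 28 of the 36 genes, with 56 starts in all, since some genes have several. At 44 of these starts the bases after the start were found in a GENCODE transcript of the gene. GPAT4, AGPAT5, LPIN3, DGAT1, DGAT2, MGLL, HILPDA and FASN had no matched promoter, so no motif was searched for them. A GC box was present at 33 of the 56 starts (58.9%), against 42.6% of all 35116 RefSeq promoter windows of that length. A CCAAT box was present at 28.6% of the starts and in 32% of all windows, and the E-box at 3.57% (LPIN2 and PLIN2) and 6.34%. The sterol regulatory element matched at 2 of 56 starts (3.57%, ACSL1 and PNPLA2), against 0.362% of all windows, and the PPAR response element at 0 starts, against 0.0171%. The exact PPAR motif matched only 6 of all 35116 windows, so its absence from 56 starts tells nothing about these genes. These matches describe letters in the sequence and were not tested as binding sites.

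Levels are first given for the pLKO libraries, as normalised CPM per kb of exon, to compare genes of different length. The length includes exon bases shared with other gene names, whose fragments were not counted, so levels of such genes may be too low. The share was 10.5% for PNPLA2, 11.1% for DGAT1, 13.3% for LPIN3, 18.3% for PLIN3 and 0% for AGPAT2 and SLC27A4. The order of close levels, such as those of SLC27A4 and PNPLA2, may depend on it. CPM here used library totals scaled by the trimmed mean of M-values (TMM) over the pLKO libraries and shFABP4 2. AGPAT2, an endoplasmic reticulum acyltransferase that makes phosphatidic acid, stood highest at 198 ± 2.12 (SD, n = 2), against 39.4 in shFABP4 2. Next came SLC27A4 (41.6), a fatty acid transport protein with acyl-CoA synthetase activity, PNPLA2 (39.9), the adipose triglyceride lipase, and DGAT1 (34.3), which adds the last acyl group. FASN (15.2), LPIN1 (12.99), GPAT4 (9.76), ACLY (8.58), MGLL (8.25) and PLIN3 (6.99) followed. Within a step of the pathway, 1 gene usually dominated. GPAT4 stood at 9.76 per kb against 3.13 for GPAT3 and 0.616 for GPAM, LPIN1 at 12.99 against 1.05 for LPIN2 and 0.328 for LPIN3, and DGAT1 at 34.3 against 2.28 for DGAT2. Of the uptake genes, SLC27A1 stood at 4.12 per kb, SLC27A3 at 1.91, SLC27A2 at 0.0832 and CD36 at 0.00352.

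**Figure D1:**
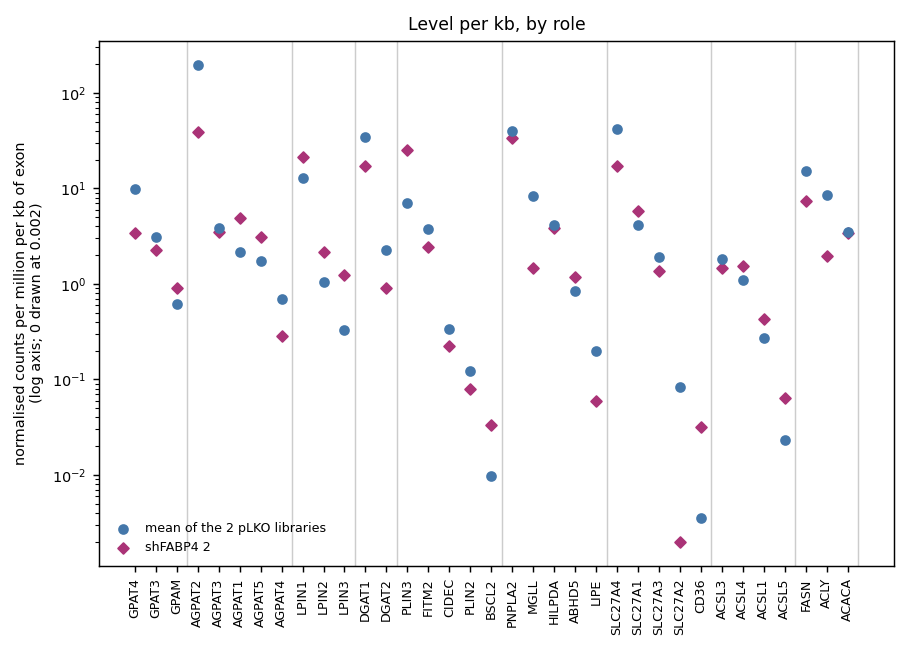
Normalised CPM per kb of exon (log axis) for each gene, ordered by role, as the mean of the 2 pLKO libraries (circles) and the value in shFABP4 2 (diamonds). AGPAT2 is the highest gene, at 198 in the pLKO libraries and 39.4 in shFABP4 2; G0S2, at 0 in both, is not drawn.

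Genes with low counts were a sizeable part of the set. There were 8 genes with fewer than 20 fragments in every library but shFABP4 1. They were the droplet coat gene PLIN2, the seipin gene BSCL2, CIDEC, the hormone-sensitive lipase gene LIPE, the lipase inhibitor G0S2, the scavenger receptor CD36, SLC27A2 and ACSL5. G0S2 had 0 fragments in both pLKO libraries and in shFABP4 2, and 6 in shFABP4 1, against an expected background of 14.3. PLIN2, a perilipin found on droplets of most cell types, had 6, 7, 66 and 9 fragments, with 35.95 of the 66 expected from background. Most fragments of these genes thus lay in shFABP4 1. For BSCL2 the count had a further limit, since 27.5% of its exon bases are shared with other gene names, mostly with HNRNPUL2-BSCL2 (1610 bases). Fragments touching exons of more than 1 name were not counted, so its low count cannot be read as a low RNA level. LIPE had 7, 16, 209 and 7 fragments, with 94.7 expected from background in shFABP4 1. It overlaps the antisense gene LIPE-AS1, and counting did not use strand.

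**Figure D2:**
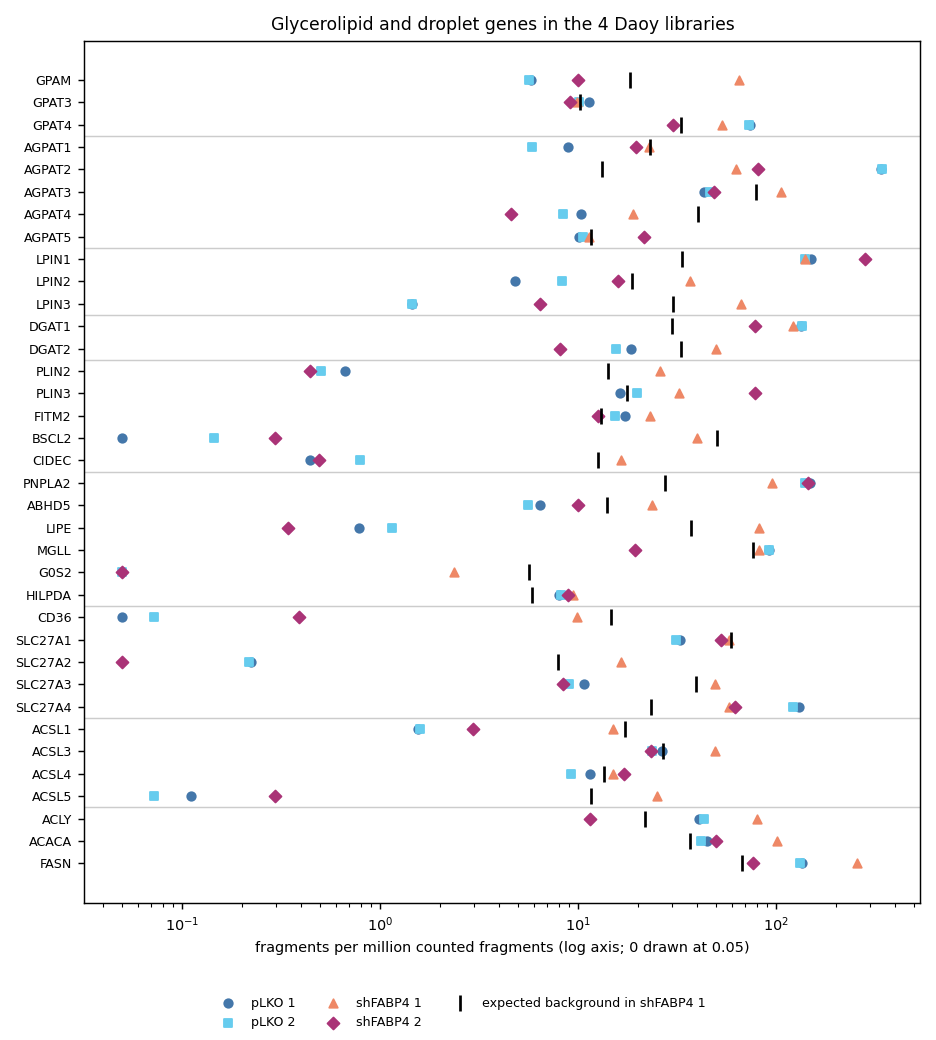
CPM, without scaling of library totals (log axis, 0 drawn at 0.05) for the 36 genes in the 4 libraries, with black ticks at the background expected in shFABP4 1. Triangles for shFABP4 1 often stand near the ticks, and the pLKO symbols lie close together.

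In the comparison of both shFABP4 libraries with both pLKO libraries, no gene of the set passed the test against the spread between libraries. With edgeR's quasi-likelihood test over all 14735 tested genes, 29 genes of the set were tested and 0 passed a Benjamini-Hochberg adjusted p of 0.05, beside 0% of all tested genes. At an unadjusted p under 0.05 there were 4 of 29 (AGPAT2, LPIN3, GPAT4 and SLC27A4), beside 12.3% of all tested genes. The median log2 fold change of the 29 was 0.04, and that of all tested genes 0.34. The log2 fold change of AGPAT2 was -2.80 (SE 0.816, adjusted p = 0.391), that GPAT4 of -1.51 (SE 0.456), SLC27A4 of -1.65 (SE 0.605) and LPIN3 of 3.69 (SE 1.07), all with the same adjusted p. An exact permutation test of 2 against 2 libraries cannot go below 0.333. The biological coefficient of variation was 0.683 in this fit, and 0.0434 when shFABP4 1 was left out.

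In shFABP4 1 the background was as large as the counts of many of these genes. Over the 36 genes, background was expected to give 2513 of 4912 fragments, or 51.2%. Counts were under 2 times the expected background in 23 of the 36 genes and under it in 9, with a median ratio of 1.73. Single silent genes scattered widely around the expectation, with the middle 90% of those expected to have at least 20 fragments between 0 and 2.76 times. AGPAT2 stood highest above it, at 159 fragments against 33.6 expected (4.73 times). Above 2.7 times were also LPIN1 (4.17), DGAT1 (4.08), FASN (3.84), ACLY (3.68), GPAM (3.57), PNPLA2 (3.46) and ACACA (2.76). MGLL stood at 209 against 194, 1.08 times its expected background, and GPAT3, at 25 against 26, and SLC27A1, at 148 against 151, stood just under theirs. From the pLKO libraries alone, the RNA expected in shFABP4 1 reached the background level for 5 genes only, AGPAT2 at 11.7 times, SLC27A4 at 2.46, PNPLA2 at 2.35, DGAT1 at 2.03 and LPIN1 at 1.96.

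**Figure D3:**
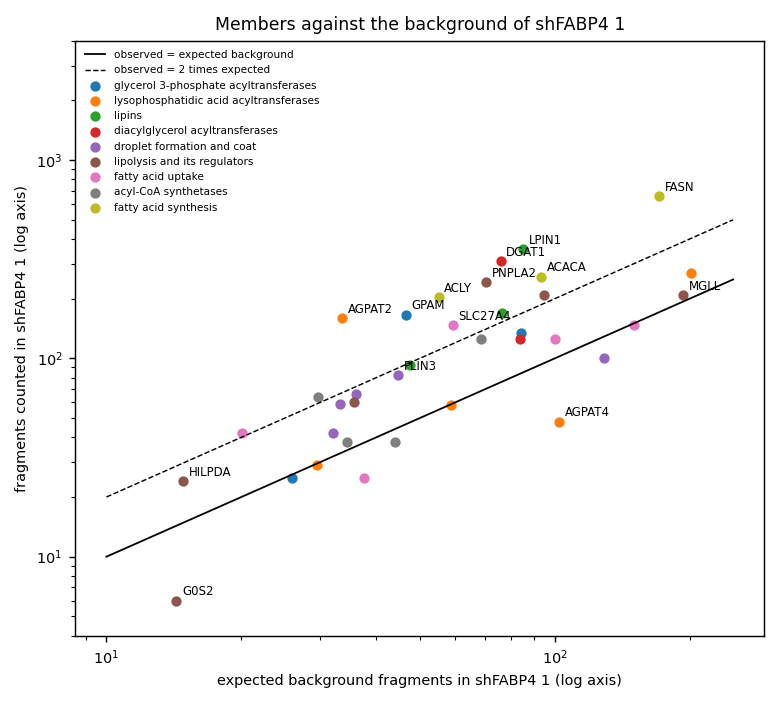
Fragments counted in shFABP4 1 (vertical, log axis) against the background expected there from silent coding genes of like GC content (horizontal, log axis), 1 point per gene, coloured by role. The solid line marks observed equal to expected and the dashed line 2 times expected; 23 of 36 genes lie under the dashed line.

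A test restricted to genes whose pLKO level predicts at least 5 times the background in shFABP4 1 held 1143 genes, of which 229 (20%) passed. AGPAT2 was the only gene of the set among them and did not pass, with a log2 fold change of -1.07 (SE 0.465, edgeR adjusted p = 0.175). At 2 times the background 4 genes of the set could be tested, and 0 passed, beside 0% of 2320 genes. There AGPAT2 had a log2 fold change of -1.34 (adjusted p = 0.0974), DGAT1 of 0.69 (0.53), PNPLA2 of 0.62 (0.223) and SLC27A4 of -0.12 (0.877). Both sets were chosen by the pLKO level alone, so a gene such as AGPAT2 entered through the group where it is high, and nothing about the set is drawn from these fits.

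Because shFABP4 1 held so much background, shFABP4 2 was also set against the pLKO pair alone. This fit takes its spread from the pLKO pair and assumes that the lone shFABP4 2 library varies as little. It called 10242 of 15301 genes (66.9%), 34.2% higher and 32.7% lower, so a call in it is common. Of the 36 genes 30 were tested and 25 passed (83.3%), 10 higher (33.3%) and 15 lower (50%) in shFABP4 2. The median log2 ratio was -0.28 over these 30 and 0.04 over all tested genes. A difference of over 2-fold was seen in 13 of the 30, 3 higher and 10 lower, beside 40.4% of all tested genes, 20.5% higher and 19.9% lower. Between the pLKO libraries themselves, the 25 genes with at least 50 fragments in both differed by 0.661-fold (AGPAT1) to 1.23-fold (PLIN3). The scaling mattered for small differences. With total counts in place of TMM the split over all genes was 6563 higher and 4052 lower, and in the set 12 higher and 10 lower. Under all 4 scalings tried, the tested genes of the set kept the sign of their log2 ratio, except ACACA, AGPAT3, HILPDA and PNPLA2. The like share over all tested genes was not counted, so this cannot be called particular to the set. GPAT3, ACSL3 and SLC27A3 (log2 ratios of -0.22, -0.08 and -0.22), LIPE (-1.51) and PNPLA2 (0.02, the other sign) did not pass with total counts.

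**Figure D4:**
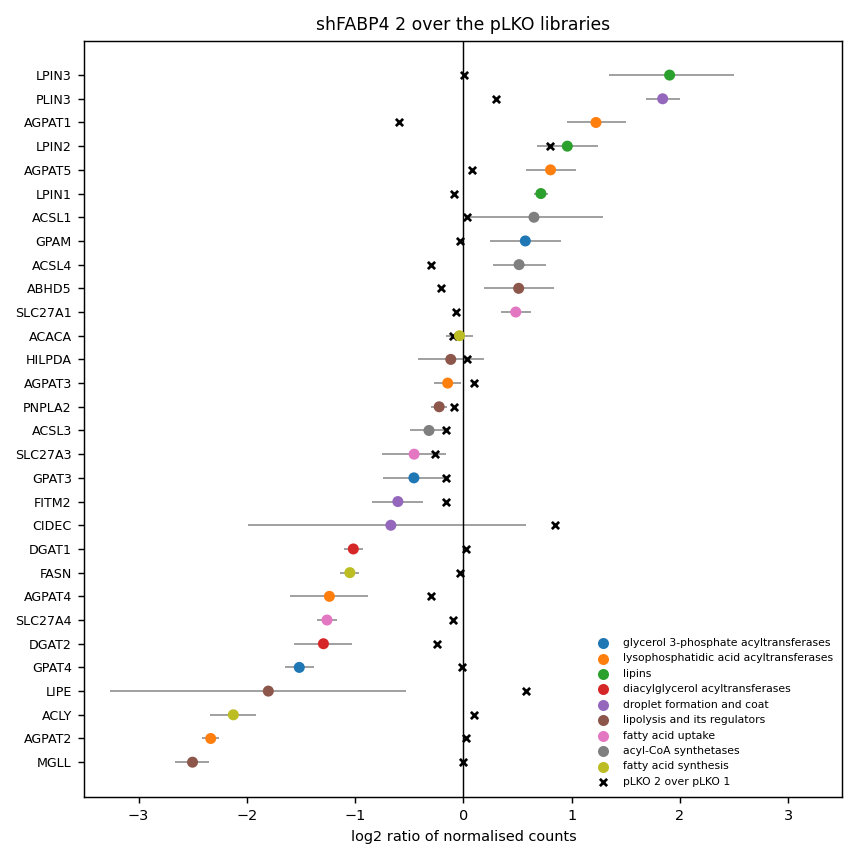
Log2 ratio of normalised counts in shFABP4 2 over the pLKO libraries for the tested genes, coloured by role, with bars for the exact 95% intervals of counting error; crosses give pLKO 2 over pLKO 1. LPIN3 and PLIN3 stand farthest to the right and MGLL, AGPAT2 and ACLY farthest to the left.

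The following values give fragments in the order pLKO 1, pLKO 2, shFABP4 1 and shFABP4 2, the pLKO mean ± SD of normalised CPM, and the fold of shFABP4 2 over pLKO with the exact 95% interval for counting error. Adjusted p-values are from edgeR without shFABP4 1. The glycerol 3-phosphate acyltransferases, which start the pathway, did not move together. GPAT4, an enzyme of the endoplasmic reticulum, had 662, 1007, 135 and 619 fragments, with 84.1 expected from background in shFABP4 1. Its level was 77.5 ± 0.420 CPM (n = 2) in the pLKO libraries and 27.1 in shFABP4 2, or 0.350-fold (0.318 to 0.384, adjusted p = 2.21e-29). GPAT3 had 102, 140, 25 and 187 fragments, and stood at 0.728-fold (0.599 to 0.885). GPAM, the mitochondrial enzyme, had 52, 78, 166 and 205 fragments, with 46.5 expected from background, and was 1.49-fold higher in shFABP4 2 (1.19 to 1.87, adjusted p = 0.0112). Of the 3, the gene lowest in the pLKO libraries was thus the one with a normalised fold above 1 in shFABP4 2, and both shFABP4 libraries lay above both pLKO libraries for GPAM.

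Among the lysophosphatidic acid acyltransferases, which add the next acyl group, AGPAT2 (chromosome 9, 136673143 to 136687457, minus strand, GRCh38) stood highest in the pLKO libraries. It had 3069, 4776, 159 and 1651 fragments, and 363 ± 3.88 CPM (n = 2) in the pLKO libraries against 72.2 in shFABP4 2. That is 0.198-fold (0.188 to 0.209), with a log2 ratio of -2.33 (SE 0.0464, adjusted p = 5.54e-56). In shFABP4 1 it stood at 62.6 CPM without scaling, and at 109 after the expected background was taken from the count and the total, or 225 with a library size set by high-signal genes. Each of these is below the unscaled 341 and 345 CPM of the pLKO libraries, as is the 80.8 of shFABP4 2. AGPAT4 had 93, 116, 48 and 94 fragments, with 102 expected from background in shFABP4 1, and 0.424-fold in shFABP4 2 (0.329 to 0.543). AGPAT5 had 91, 147, 29 and 441 fragments and was 1.75-fold higher (1.49 to 2.05), with its 29 fragments in shFABP4 1 at the 29.6 expected from background. AGPAT1 had 80, 81, 58 and 399 fragments and was 2.34-fold higher (1.94 to 2.82). It shares 30.5% of its exon bases with other gene names, mostly with PPT2-EGFL8, so its count is partial. AGPAT3 had 391, 640, 269 and 989 fragments and 0.904-fold (0.828 to 0.988, adjusted p = 0.107), which did not pass.

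All 3 lipins, the phosphatases that turn phosphatidic acid into diacylglycerol, were higher in shFABP4 2. LPIN1 (chromosome 2, 11677595 to 11827409, plus strand) had 1352, 1948, 355 and 5749 fragments. Its level was 154 ± 6.74 CPM (n = 2) in the pLKO libraries and 251 in shFABP4 2, or 1.64-fold (1.57 to 1.71, adjusted p = 9.97e-25). In shFABP4 1, with 85.1 of its 355 fragments expected from background, the unscaled level of 140 CPM was just below the 150 and 141 of the pLKO libraries. TMM scaling of all 4 libraries put LPIN1 at 84.7 CPM for shFABP4 1, under the pLKO values of 187.5 and 176.6. On that scale shFABP4 2 lay above them, at 297. With the expected background taken off, shFABP4 1 stood at 236 CPM, or 484 with the high-signal library size. Both values were above the unscaled pLKO levels, as was the unscaled 281 of shFABP4 2. The position of shFABP4 1 for LPIN1 thus depended on the scaling. LPIN2 had 43, 115, 93 and 326 fragments and 1.95-fold (1.60 to 2.37), although pLKO 2 was itself 1.75-fold above pLKO 1. LPIN3 had 13, 20, 170 and 131 fragments, with 76.3 of the 170 expected from background, and 3.74-fold in shFABP4 2 (2.54 to 5.66, adjusted p = 1.60e-07). Both shFABP4 libraries lay above both pLKO libraries for LPIN2 and LPIN3.

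Both diacylglycerol acyltransferases were lower in shFABP4 2. DGAT1 had 1199, 1864, 309 and 1606 fragments, with 142 ± 1.41 CPM (n = 2) in the pLKO libraries and 70.2 in shFABP4 2, or 0.494-fold (0.465 to 0.525, adjusted p = 5.70e-27). With TMM scaling of all 4 libraries, both shFABP4 libraries lay below both pLKO libraries, but other scalings parted them. With the expected background taken off, shFABP4 1 stood at 204 CPM, or 418 with the high-signal library size, above the unscaled 133 and 135 of the pLKO libraries, and shFABP4 2 at 78.6. DGAT2 had 166, 215, 126 and 165 fragments, with 83.8 expected from background, and 0.408-fold in shFABP4 2 (0.338 to 0.491).

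Of the genes for droplet formation and coat, PLIN3 (chromosome 19, 4838341 to 4867694, minus strand), a perilipin that moves from the cytosol to new droplets, had 146, 276, 82 and 1603 fragments. It stood at 19.2 ± 2.83 CPM (n = 2) in the pLKO libraries and 70.1 in shFABP4 2, or 3.58-fold (3.21 to 3.995, adjusted p = 1.14e-29). Its 82 fragments in shFABP4 1 compare with 44.8 expected from background. PLIN3 shares 18.3% of its exon bases with CTC-518P12.6, so its count is partial. FITM2, which helps droplets bud from the endoplasmic reticulum, had 156, 214, 59 and 258 fragments and 0.657-fold in shFABP4 2 (0.558 to 0.773, adjusted p = 0.000428). PLIN3 was higher and FITM2 lower, so the tested genes of this role moved in both directions. CIDEC, which promotes droplet fusion in adipocytes, had 4, 11, 42 and 10 fragments and did not pass (adjusted p = 0.509). PLIN2 and BSCL2 were not tested.

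In lipolysis, the first and the last lipase of the pathway differed. PNPLA2, which cuts the first acyl group from triacylglycerol, had 1339, 1938, 243 and 2977 fragments, or 149, 140, 95.7 and 146 unscaled CPM. Its fold in shFABP4 2 was 0.856 with TMM (0.815 to 0.900, adjusted p = 4.33e-05), and with total counts it did not pass. MGLL (chromosome 3, 127689062 to 128052190, minus strand), which cleaves monoacylglycerol, had 833, 1276, 209 and 395 fragments. It stood at 97.8 ± 0.0474 CPM (n = 2) in the pLKO libraries and 17.3 in shFABP4 2, or 0.177-fold (0.158 to 0.197, adjusted p = 6.59e-42), the lowest ratio among the 30 tested genes. In shFABP4 1 its count was close to the 194 expected from background, which leaves 13.3 CPM, or 27.2 with the high-signal library size. ABHD5, the coactivator of PNPLA2, had 58, 77, 60 and 204 fragments and was 1.42-fold higher in shFABP4 2 (1.14 to 1.78, adjusted p = 0.0247). HILPDA, an inhibitor of PNPLA2 induced by hypoxia, had 72, 113, 24 and 181 fragments and 0.922-fold (0.747 to 1.14, adjusted p = 0.613), which did not pass. LIPE was at 0.287-fold on 7 fragments (0.104 to 0.691), close to the threshold (adjusted p = 0.0498).

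Among the uptake genes, SLC27A4 (chromosome 9, 128340527 to 128361470, plus strand) had 1181, 1697, 147 and 1275 fragments. Its level was 134 ± 6.14 CPM (n = 2) in the pLKO libraries and 55.7 in shFABP4 2, or 0.418-fold (0.391 to 0.446, adjusted p = 1.19e-30). In shFABP4 1, where 59.3 of the 147 fragments were expected from background, the level was 76.6 CPM after subtraction and 157 with the high-signal library size, on either side of the unscaled 131 and 123 CPM of the pLKO libraries. SLC27A1, a transporter prominent in muscle and fat, had 295, 431, 148 and 1077 fragments and was 1.398-fold higher in shFABP4 2 (1.27 to 1.54, adjusted p = 1.10e-06). SLC27A3 had 97, 124, 125 and 171 fragments, with 100 expected from background, and 0.729-fold (0.594 to 0.894). CD36, with 0, 1, 25 and 8 fragments, and SLC27A2, with 2, 3, 42 and 0, were not tested.

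The tested acyl-CoA synthetases stood between 0.802-fold and 1.57-fold in shFABP4 2. ACSL3, an enzyme found on nascent droplets, had 238, 326, 125 and 480 fragments and 0.802-fold (0.709 to 0.908, adjusted p = 0.0192). ACSL4, which prefers arachidonic acid, had 103, 128, 38 and 350 fragments and was 1.43-fold higher (1.21 to 1.69, adjusted p = 0.00408), with 34.3 of the 38 fragments in shFABP4 1 expected from background. ACSL1 had 14, 22, 38 and 60 fragments and 1.57-fold (1.02 to 2.45, adjusted p = 0.121), which did not pass. ACSL5 had 1, 1, 64 and 6 fragments and was not tested.

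Of the enzymes of fatty acid synthesis, ACLY and FASN were lower in shFABP4 2 and ACACA did not pass. ACLY (chromosome 17, 41866917 to 41930542, minus strand), which makes cytosolic acetyl-CoA from citrate, had 368, 602, 203 and 236 fragments. It stood at 44.7 ± 2.05 CPM (n = 2) in the pLKO libraries and 10.3 in shFABP4 2, or 0.229-fold (0.198 to 0.265, adjusted p = 4.92e-27). FASN (chromosome 17, 82078338 to 82098294, minus strand), the fatty acid synthase, had 1220, 1826, 656 and 1562 fragments, and 142 ± 2.39 CPM (n = 2) against 68.3, or 0.483-fold (0.454 to 0.514, adjusted p = 1.20e-27). ACACA, the acetyl-CoA carboxylase that feeds FASN, had 405, 580, 258 and 1019 fragments and 0.975-fold (0.892 to 1.07, adjusted p = 0.663). For ACLY and FASN, both shFABP4 libraries lay below both pLKO libraries with TMM scaling of all 4, and on either side of them with the background subtracted. After that subtraction, shFABP4 1 stood at 129 CPM for ACLY and 423 for FASN, above the unscaled 40.9 and 43.5 CPM and 136 and 132 CPM of the pLKO libraries, while shFABP4 2 stood at 11.6 and 76.5.

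The position of the 2 shFABP4 libraries against the 2 pLKO libraries depended on the scaling of shFABP4 1. With TMM, both lay above both pLKO libraries in 6 of the 29 tested genes (28.5% of all tested genes) and below in 11 (26.1%). With the high-signal scaling they lay above in 17 (65.4%) and below in 1 (4.05%), and with total counts above in 13 (43.3%) and below in 6 (15.9%). With the expected background subtracted they lay above in 8 (31.5%) and below in 6 (20.7%), and with the high-signal library size as well above in 9 (39.3%) and below in 4 (14.8%). Under all 5 scalings AGPAT2 lay below, 1 of 29 genes beside 3.94% of all tested genes. GPAM, LPIN2, LPIN3 and ABHD5 lay above under all 5, or 4 of 29 beside 19.5%. These 4 are low genes, whose RNA, predicted from the pLKO libraries, was smaller than the background in shFABP4 1.

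Other genes of glycerolipid metabolism came from 7 lists with 83 genes, which hold no gene of the set. With all 4 libraries 60 were tested and 0 passed (0% of all tested genes), with a median log2 fold change of 0.03. Without shFABP4 1, 62 were tested, of which 26 were higher and 20 lower in shFABP4 2 and 16 did not pass, with a median log2 ratio of 0.24. The share of 74.2% called compares with 66.9% of all tested genes. Of phospholipid synthesis 15 genes were tested, 5 higher and 7 lower, among them PCYT1A, which controls phosphatidylcholine synthesis, at 266, 437, 83 and 308 fragments (0.413-fold), and PISD, which makes phosphatidylethanolamine in mitochondria, at 0.553-fold. Of lysophospholipid remodelling 7 genes were tested, 5 higher and 1 lower. The lower one was LPCAT1, which acylates lysophosphatidylcholine, with 986, 1349, 311 and 343 fragments and 0.138-fold (0.123 to 0.155), while LPCAT2 stood at 2.95-fold on 23, 22, 32 and 141 fragments. LPCAT1 thus had a lower ratio than any of the 30 tested genes of the set.

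Of 10 tested genes for other droplet proteins, 4 were higher and 2 lower. LDAF1, the partner of seipin at sites of droplet assembly, listed in the table as TMEM159, had 598, 927, 43 and 415 fragments and 0.257-fold in shFABP4 2. VPS13A, a lipid transfer protein found at droplets, had 86, 111, 114 and 519 fragments and 2.48-fold. Of 9 other hydrolases and transferases, 3 were higher and 3 lower, with DDHD2 at 1.65-fold and ABHD12 at 0.639-fold. Of 8 other acyl-CoA synthetases and carriers, 4 were higher and 3 lower, and DBI, the acyl-CoA binding protein, had 706, 973, 116 and 949 fragments (0.533-fold), with ACBD3 at 0.592-fold. Of 9 other genes of fatty acid synthesis, 4 were higher and 3 lower, and the mitochondrial enzymes MCAT and MECR stood at 0.348-fold and 0.576-fold. Of 4 genes supplying glycerol phosphate, 1 was higher and 1 lower, with GPD2 at 0.527-fold. Each list thus held genes in both directions.

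**Figure D5:**
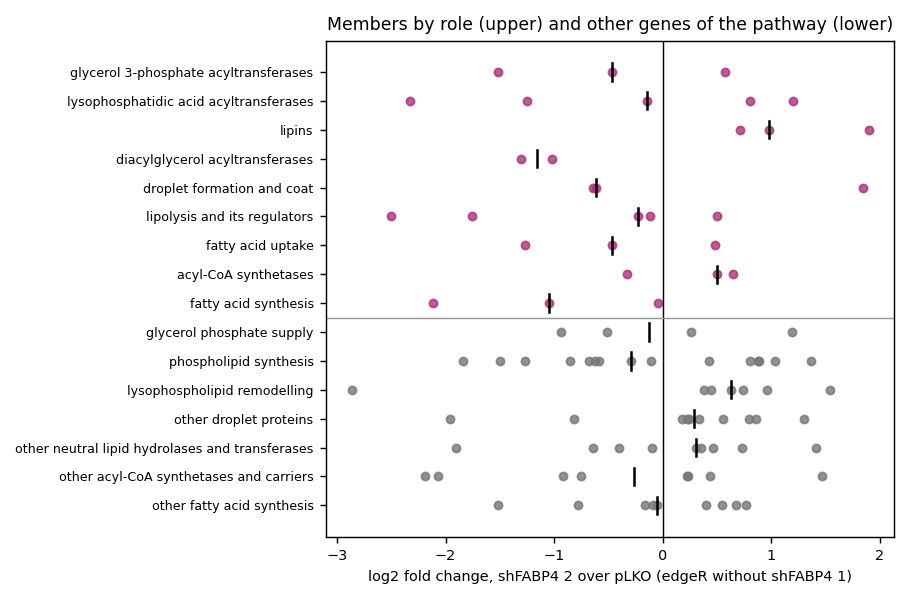
Log2 fold change of shFABP4 2 over pLKO without shFABP4 1, 1 point per tested gene, with the 9 roles of the set above the grey line and the 7 other lists below it; black ticks give each list's median. The lipins have their median at 0.98 and the diacylglycerol acyltransferases at -1.16, and most other lists spread over both sides of 0.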

How the data were processed

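RNA was sequenced from 4 Daoy libraries, 2 per group. RNA came from TRIzol, mRNA was captured on beads and fragmentation used Tn5, per the labels' protocols. The submitters' processing notes name FastQC, HISAT, StringTie and GRCh38. The count table deposited by the authors holds unnormalised fragment counts per gene name from featureCounts 2.0.0, with GENCODE 38 exons and no strand option, per the file headers. The gene names of 7 unreadable lines were left out. Each library's depth is in the report; intervals and the limit of 3 counts cover counting error only.

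The test was edgeR's two-sided, robust quasi-likelihood F test (version 4.0.16, R 4.3.3) after TMM scaling and filterByExpr (at least 10 counts, 15 in total), with Benjamini-Hochberg adjustment over all tested genes at 0.05. The script was checked on simulated data. Background in shFABP4 1 came from 2657 silent coding genes in 6 bins of GC content (GENCODE 29, which gave a value for all 36 genes of the set), and its GC classes make the expected values approximate. That estimate leaves 45.1% of shFABP4 1 for RNA, whereas high-signal genes imply 22.0%. The background taken off was the same with both library sizes, so subtracted values with the high-signal size may be too high. Both pLKO libraries were kept, since their counts differed beyond sampling noise (chi-square over its degrees of freedom 2.16). No label ties libraries with the same number, so numbers were not taken as a pairing. Deviations of such libraries correlated at 0.01, but the background in shFABP4 1 enters this value, so it cannot exclude a pairing.

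The genes and lists were chosen with earlier results of these data known. Genes of the set with a mean of at least 50 fragments were named with all values, and from each other list the 2 with the smallest p among genes with that mean (1 gene for glycerol phosphate supply). The background-subtracted scalings, the other scalings without shFABP4 1 and the promoters shown were chosen after the values were seen. Alternatives were other scalings, no filter, DESeq2 1.42.0, limma-voom (limma 3.58.1), a replicate block and each library left out.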

Additional observations from a re-analysis of the deposited data

How the results depend on the processing

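The count of 0 genes past the threshold over all tested genes became 69 without a filter, 719 with DESeq2 and 28 with a replicate block, and stayed 0 with limma-voom and with RLE, upper-quartile and total-count scaling. Leaving out libraries gave 0 to 23894 (23894 without shFABP4 2, 10242 without shFABP4 1, 0 without either pLKO library). Without shFABP4 1, RLE, upper-quartile and total-count scaling gave 10078, 10290 and 10615 genes, and 26, 24 and 22 genes of the set. In the set, the count of 0 became 3 with DESeq2 (AGPAT2 lower, LPIN3 and LIPE higher), stayed 0 with the replicate block, and was 0 to 31 with libraries left out (31 of 35 without shFABP4 2, 25 of 30 without shFABP4 1). Of 1143 high-signal genes, where 229 passed, 8 passed with total counts, 388 with DESeq2 and 360 with a replicate block, 0 of 2320 at 2 times the background, and 0 (without pLKO 2) to 1020 (without shFABP4 1) with libraries left out, 34 without pLKO 1 and 852 without shFABP4 2. AGPAT2, the 1 gene of the set among them, passed with the replicate block and without either shFABP4 library, so this count was 0 to 1.

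Log2 fold changes of single genes with all 4 libraries changed sign in 26 of 204 alternatives. With RLE these were AGPAT3 -0.042, LPIN1 -0.00397 and ACACA -0.00904, and with DESeq2 AGPAT3 -0.042, LPIN1 -0.00394 and ACACA -0.00906. With upper-quartile scaling DGAT2 was at 0.21 and ACSL3 at 0.069. With total counts AGPAT4 was at 0.31, DGAT2 0.75, FITM2 0.12, HILPDA 0.18, ACSL3 0.53, ACLY 0.11 and FASN 0.32. Without a filter AGPAT3 was at -0.39, LPIN1 -0.035, SLC27A1 -0.071, SLC27A3 -0.0445, ACSL4 -0.13 and ACACA -0.34. With limma-voom LPIN1 was at -0.58 and LIPE -0.18, and with the replicate block AGPAT5 -0.032, LPIN1 -0.20 and ACSL4 -8.717e-05. With 1 library left out, the values of genes that changed sign ranged from -0.57 to 1.21 for AGPAT1, -1.01 to -0.14 for AGPAT3, -2.11 to 0.81 for AGPAT5, -2.30 to 0.71 for LPIN1, -1.43 to 1.85 for PLIN3, -0.26 to 0.50 for ABHD5, -1.755 to 4.09 for LIPE, -1.38 to 0.48 for SLC27A1, -0.47 to 0.18 for SLC27A3, -1.69 to 0.50 for ACSL4 and -1.02 to -0.041 for ACACA. The cause of these changes was not tested. In 11 of 29 genes the sign was the same under each of these alternatives, although PNPLA2, 1 of the 11, had the other sign with total counts without shFABP4 1.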
